A study of Homo sapiens with 4 samples.

Results

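The DNA replication machinery was examined as 36 named genes in RNA sequencing of AGS cells, a line established from a human gastric adenocarcinoma. The genes were chosen by name, for the part their proteins take in copying DNA. No measured value entered the rule, but earlier results of these data were known when the list was chosen. All 36 were found among the 47251 genes listed, and all 36 were among the 9873 genes tested, those whose mean over the libraries was at least 1 FPKM. FPKM, fragments scaled by length and by library depth, is the unit taken here for the deposited values, since the tables do not name it. The sh-MFAP2 group held 2 libraries of cells infected with a lentivirus for an shRNA, a hairpin RNA that silences a chosen mRNA, against MFAP2, a microfibril-associated matrix protein. The control group held 2 libraries of cells infected with a lentivirus for a scrambled shRNA. Both kinds of cells carried the vector and were selected with puromycin, and each group came from stably infected cells of the same parental line. The titles number both sh-MFAP2 libraries as sh1 whereas another label marks the second as sh2, so it cannot be told whether 1 or 2 hairpins were used. Nothing in the labels says that the libraries came from separate cultures, and p-values then measure only the spread between these libraries.

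Copying of the genome starts when the origin recognition complex, with CDC6 and CDT1, loads the ring-shaped MCM2-7 helicase onto DNA. CDC45 and the GINS complex join MCM2-7 to form the active CMG helicase, RPA coats the exposed single strands, and polymerase alpha-primase lays down primers. RFC then loads the sliding clamp PCNA for polymerases delta and epsilon, and FEN1 and LIG1 process and join Okazaki fragments. The genes are induced together before S phase by E2F factors, and their mRNAs are commonly read as markers of dividing cells. In bulk samples, fewer cells in S phase and less mRNA per cell cannot be told apart.

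MFAP2 had a value of 0 FPKM in each library with sh-MFAP2, and of 0.0116 and 0.0138 FPKM in control replicates 1 and 2. The target was thus near 0 also in the controls, so its mRNA gave no check of the labels. The study reported a check of its knockdown line by western blot and quantitative PCR. It also reported more MFAP2 protein in gastric cancer lines, AGS among them, than in a gastric epithelial line. Why the mRNA was near 0 in these libraries was not tested. EPCAM, KRT8, KRT18 and KRT19, markers of epithelium, were high in all 4 libraries, while CDH1 was at 0.584 to 1.25 FPKM and CLDN4 was above 1 FPKM in sh-MFAP2 replicate 1 only. The 3 endothelial markers were below 1 FPKM in every library. The 5 fibroblast markers summed to 2.11 to 2.34 FPKM in sh-MFAP2 and to 4.39 to 4.96 FPKM in control. Nearly all of this was COL1A1, with 4 of the 5 below 1 FPKM throughout and COL1A2 and DCN at or near 0. The 4 leukocyte markers summed to 3.17 to 3.22 FPKM in sh-MFAP2 and to 7.23 to 7.89 FPKM in control, nearly all of it CD68, with PTPRC and CD3E at or near 0. The part of these differences in the results below was not tested. Depth is not stated, and the step between low values implied about 54700000 to 74900000 reads per library, or from about 252 reads behind GINS4 in sh-MFAP2 replicate 1 to about 48433 behind PCNA in control replicate 2.

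No replication gene was called as differentially expressed. With limma on log2(FPKM + 1) and Benjamini-Hochberg adjustment over the 9873 genes, 0 of the 36 had a p under 0.01 with an adjusted p under 0.05, where 0.273% of all genes tested were called (27 genes). The smallest adjusted p of any member was 0.294, for RFC1. At an unadjusted limma p under 0.05, 3 members were lower in sh-MFAP2 (RFC1, PRIM2 and POLA1) beside 8.41% of all genes, and 1 was higher (LIG1) beside 3.89% of all genes. Both sh-MFAP2 libraries lay below both controls for 12 of the 36 members, against 31.4% of all genes tested, and above both controls for 8 members, against 17.5%. These shares, 33.3% and 22.2% of the members, were close to those of all genes. The counts depend on the scaling. Under median of ratios MCM6 and CDT1 lay above both controls and MCM10 and POLE overlapped. The median log2 fold change of the members was 0.05, with 19 higher and 17 lower in the mean, beside a median of -0.05 over all genes tested. The smallest two-sided p that 2 libraries against 2 allow in an exact permutation test of 1 gene is 0.333, and the calls therefore depend on the variance that limma shares across genes.

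**Figure D1:**
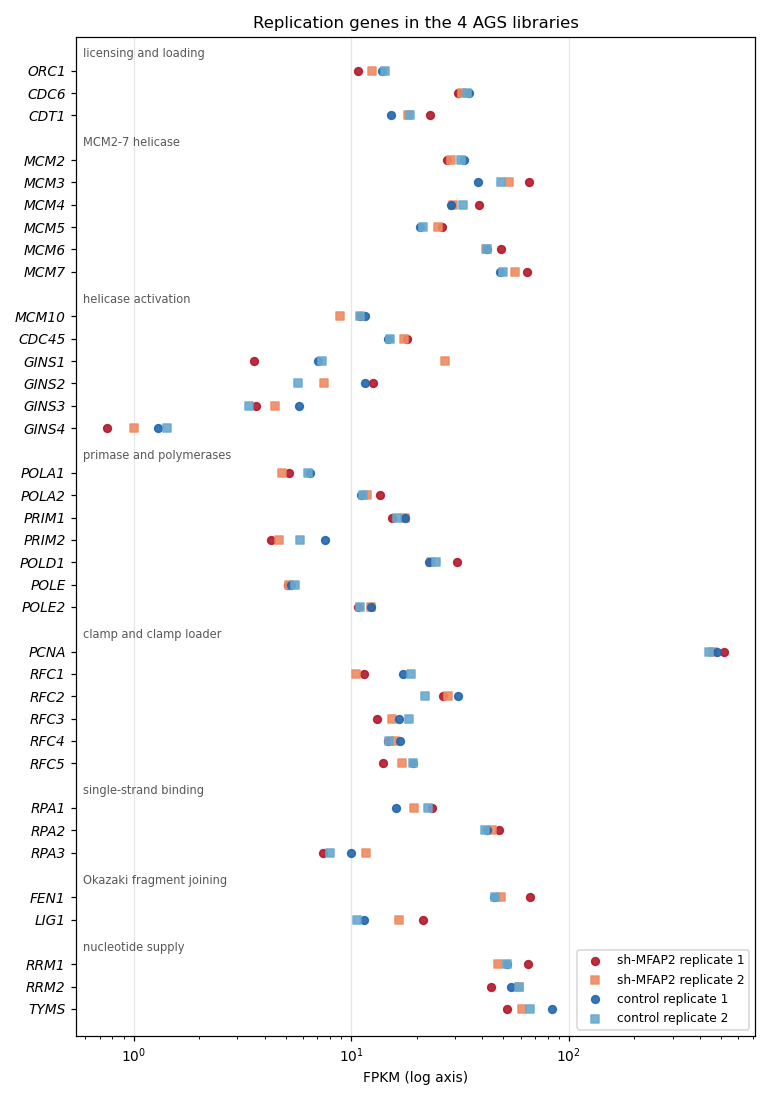
FPKM of each of the 36 replication genes (log axis) in the 2 sh-MFAP2 libraries (red shades) and the 2 control libraries (blue shades), grouped by role, with 1 point per library. PCNA stands apart at 439.6 to 518 FPKM and GINS4 is lowest at 0.757 to 1.43 FPKM, while for GINS1 the sh-MFAP2 libraries fall on both sides of the controls.

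Several promoters of the set carry letters that E2F factors can bind, and 4 are shown because they span the cases found: many matches, 1 match and none. RefSeq promoters (GRCh38.p14, 250 bases before to 50 after the start) were matched by symbol for 31 of the 36 genes. TTTCCCGC, TTTCGCGC, TTTGCCGC or TTTGGCGC, on either strand, was found in at least 1 promoter of 17 of the 31 genes (54.8%), compared with 3.99% of the 27305 symbols in the table. CCAAT, on either strand, was found for 18 of 31 (58.1%), compared with 39.7% of all symbols. TTTGAA, searched in the same way, was found for 1 of 31 (3.23%), compared with 18.2%. A match is a description of the letters and not a site of binding, and symbols with several starts have several windows to match. Below are stretches that no annotated exon covers, 5′ to 3′ on the strand of the gene, with the matched letters in capitals (CCAAT or its reverse ATTGG, and E2F letters in either orientation). MCM6 (chr2:135876444-135876693, minus strand) held TTTGGCGC at 2 places, each overlapping GCGCGAAA, which reads TTTCGCGC on the other strand.
MCM6: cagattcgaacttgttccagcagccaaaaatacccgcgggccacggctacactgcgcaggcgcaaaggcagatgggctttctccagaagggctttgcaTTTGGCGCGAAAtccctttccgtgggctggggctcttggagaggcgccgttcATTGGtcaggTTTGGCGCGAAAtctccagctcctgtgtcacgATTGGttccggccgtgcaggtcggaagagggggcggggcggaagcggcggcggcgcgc
MCM3 (chr6:52284882-52284992, minus strand), whose mRNA was higher in both sh-MFAP2 libraries, held 1 of each in this stretch.
MCM3: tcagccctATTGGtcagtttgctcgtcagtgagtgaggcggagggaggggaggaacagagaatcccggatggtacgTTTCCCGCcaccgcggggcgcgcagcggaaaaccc
Another PCNA stretch (chr20:5120027-5120208, minus strand), not shown, held CCAAT and ATTGG and none of the E2F letters searched. The PCNA stretch shown (chr20:5126627-5126785, minus strand), of the gene highest in FPKM among the 36, held 1 match to the E2F letters between CCAAT letters.
PCNA: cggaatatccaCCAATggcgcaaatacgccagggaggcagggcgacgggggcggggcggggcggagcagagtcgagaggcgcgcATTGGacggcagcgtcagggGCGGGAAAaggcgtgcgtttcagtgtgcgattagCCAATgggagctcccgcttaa
RFC1 (chr4:39366376-39366612, minus strand), whose mRNA was lower in both sh-MFAP2 libraries, held CCAAT only, and none of the E2F letters searched.
RFC1: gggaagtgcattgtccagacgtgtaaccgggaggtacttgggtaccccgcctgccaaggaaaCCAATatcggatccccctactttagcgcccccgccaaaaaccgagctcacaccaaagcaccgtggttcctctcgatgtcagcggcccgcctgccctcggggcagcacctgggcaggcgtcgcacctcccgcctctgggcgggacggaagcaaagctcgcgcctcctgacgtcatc

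The E2F letters occurred among members of either direction. They were found for 4 of the 6 genes with a promoter in the table among those above the controls and for 6 of the 11 among those below. For the members whose groups overlapped they were found for 7 of 14. CCAAT was found for 3 of 6, 7 of 11 and 8 of 14 in the same order. No test was made of these small counts.

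Of the 3 licensing genes, ORC1 and CDC6 were lower in both sh-MFAP2 libraries and CDT1 overlapped. ORC1, the ATPase of the origin recognition complex that CDC6 joins, was at 10.8 and 12.4 FPKM in replicates 1 and 2 with sh-MFAP2, and at 13.8 and 14.3 FPKM with the control shRNA. Neither sh-MFAP2 library reached the lower control, with a log2 fold change of -0.26 (standard error 0.120, adjusted p = 0.458 from limma). CDC6, the loading ATPase, was at 31.1 and 32.2 FPKM against 34.7 and 34.0 FPKM, a lower value in both libraries by a log2 fold change of only -0.11, which turned to 0.06 once a trend on GC content and length was removed. CDT1, which brings MCM2-7 to the origin, was at 23.1 and 18.2 FPKM against 15.2 and 18.6 FPKM. The groups overlapped for CDT1, since sh-MFAP2 replicate 2 lay just below control replicate 2, and after scaling by median of ratios they no longer did.

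Of the 6 helicase subunits, 3 were higher in both sh-MFAP2 libraries and 1 was lower. MCM3 (chromosome 6, 52264009 to 52284881, minus strand) was at 65.7 and 53.3 FPKM with sh-MFAP2 and at 38.1 and 48.9 FPKM with the control shRNA, with a log2 fold change of 0.45 (standard error 0.195, 95% interval -0.11 to 1.00). MCM7 (chromosome 7, 100092728 to 100101940, minus strand) was at 64.5 and 56.8 FPKM against 48.2 and 49.6 FPKM, a log2 fold change of 0.30 (standard error 0.120, adjusted p = 0.419 from limma). The spread was small for MCM5 (chromosome 22, 35400063 to 35425430, plus strand), at 26.2 and 25.0 FPKM against 20.8 and 21.3 FPKM, and its log2 fold change was 0.27 (95% interval -0.02 to 0.56). For these 3 subunits the higher values held whichever library was left out, from 0.27 to 0.62 for MCM3, 0.21 to 0.39 for MCM7 and 0.24 to 0.31 for MCM5. MCM7 holds the microRNA genes MIR25, MIR93 and MIR106B in its introns on the same strand, and its exons overlap those of AP4M1 on the other strand.

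MCM2 went the other way. It was at 27.5 and 28.8 FPKM with sh-MFAP2 and at 33.0 and 31.8 FPKM with the control shRNA, a log2 fold change of -0.20 (standard error 0.103, adjusted p = 0.496 from limma). MCM4 was at 38.7 and 29.3 FPKM against 28.9 and 32.5 FPKM, and MCM6 at 49.0 and 41.7 FPKM against 42.3 FPKM in both controls, so both overlapped. After scaling by median of ratios MCM6 lay above both controls. The 6 subunits stand in equal number in the ring, but their gene FPKM was not equal in any library. The gene table divides by 1 length per gene, 7189 bases for MCM5 and 4118 for MCM6, whose leading transcripts have 3534 and 3736 bases. Values of different subunits, here and in the other complexes, therefore do not rank their mRNAs, and shares depend on these lengths. MCM3 held 24.2% and 22.7% of the summed subunit FPKM in sh-MFAP2 and 18.1% and 21.6% in control, while MCM2 held 10.1% and 12.3% against 15.6% and 14.1%. The shares of both genes did not overlap between the groups, MCM3 taking more and MCM2 less of the total in sh-MFAP2. The total of the 6 genes was 272 and 235 FPKM with sh-MFAP2 (253 ± 25.9, SD, n = 2) and 211 and 226 FPKM with the control shRNA (219 ± 10.7, SD, n = 2), a ratio of 1.16. The log2 ratio of these totals was 0.21, and it was 0.10 without sh-MFAP2 replicate 1 and 0.31 without sh-MFAP2 replicate 2.

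Among the factors that turn the loaded ring into a working helicase, CDC45 was higher, and MCM10 and GINS4 were lower. CDC45 (chromosome 22, 19479459 to 19520612, plus strand) was at 18.0 and 17.5 FPKM with sh-MFAP2 and at 14.7 and 15.1 FPKM with the control shRNA. Its libraries agreed closely within each group, giving a log2 fold change of 0.24 (standard error 0.0996, adjusted p = 0.431 from limma). MCM10, a scaffold needed for the helicase to start, was at 10.9 and 8.86 FPKM against 11.6 and 11.0 FPKM, groups that overlapped after scaling by median of ratios. GINS4 was the least abundant member, at 0.757 and 1.00 FPKM against 1.30 and 1.43 FPKM, with a log2 fold change of -0.33 (95% interval -0.68 to 0.01) that the pseudocount of 1 understates.

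GINS1 had the widest spread of the 36 genes. It lies on chromosome 20 from 25407727 to 25452628 on the plus strand, and encodes a subunit of the GINS complex that bridges MCM2-7 and polymerase epsilon. It was at 3.59 FPKM in sh-MFAP2 replicate 1 and at 26.9 FPKM in sh-MFAP2 replicate 2, while the controls were at 7.06 and 7.32 FPKM. The sh-MFAP2 libraries thus lay on both sides of a narrow pair of controls, and the log2 fold change of 0.47 had a standard error of 0.953. Without sh-MFAP2 replicate 2 it was -0.84, and without sh-MFAP2 replicate 1 it was 1.77. GINS1 held 17.4% of the summed GINS FPKM in sh-MFAP2 replicate 1 and 67.4% in replicate 2, against 27.5% and 41.1% in control.

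The libraries of GINS2 differed more within the groups than between their means, at 12.6 and 7.53 FPKM with sh-MFAP2 and at 11.6 and 5.70 FPKM with the control shRNA. GINS3 was at 3.64 and 4.47 FPKM against 5.75 and 3.38 FPKM. The GINS total was 20.6 and 39.9 FPKM with sh-MFAP2 and 25.7 and 17.8 FPKM with the control shRNA, with overlapping groups and a direction that rested on 1 library. The log2 ratio of the totals was 0.42 with all 4 libraries and -0.05 without sh-MFAP2 replicate 2. The total of the 11 CMG genes was 310.3 and 292 FPKM with sh-MFAP2 and 252 and 259 FPKM with the control shRNA, a ratio of 1.18, and MCM2-7 gave most of each total.

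**Figure D2:**
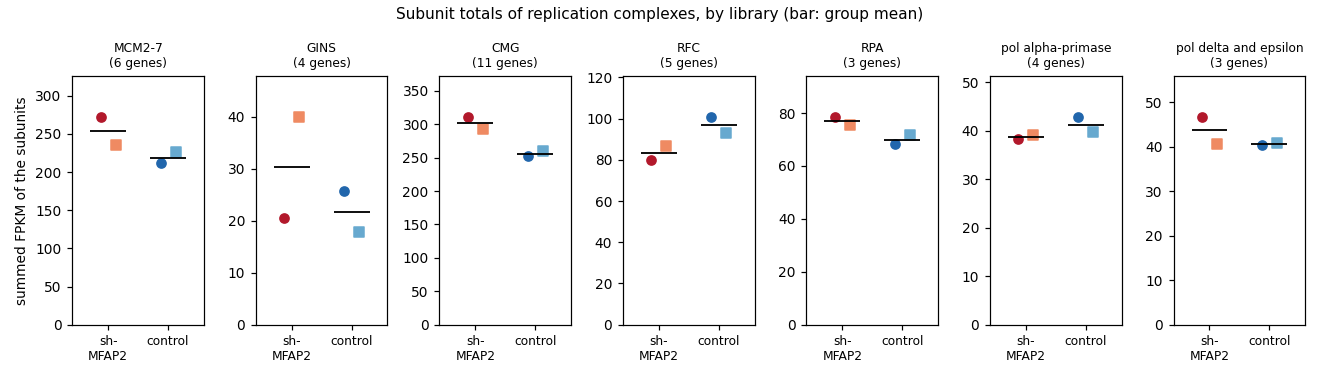
Summed FPKM of the subunits of 7 replication complexes in each library (each panel has its own axis, starting at 0), with circles for replicate 1, squares for replicate 2 and a bar at the mean of each group. MCM2-7, CMG and RPA totals are higher and RFC totals lower in both sh-MFAP2 libraries, GINS overlaps with 1 library at 39.9 FPKM, and the 2 polymerase panels differ by little.

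Polymerase alpha-primase makes the RNA-DNA primer of every fragment, and its 4 subunits had no common direction. PRIM2, the large primase subunit (chromosome 6, 57314805 to 57646849, plus strand), was at 4.27 and 4.68 FPKM with sh-MFAP2 and at 7.58 and 5.79 FPKM with the control shRNA, with a log2 fold change of -0.48 (standard error 0.161, adjusted p = 0.399 from limma). POLA1, the catalytic polymerase subunit (chromosome X, 24693919 to 24996986, plus strand), was at 5.20 and 4.80 FPKM against 6.44 and 6.36 FPKM, a log2 fold change of -0.30 (standard error 0.102, adjusted p = 0.399 from limma). After removal of the GC and length trend it was -0.09 for POLA1 and -0.37 for PRIM2. POLA2, its accessory subunit, was on the other side, at 13.5 and 11.9 FPKM against 11.1 and 11.4 FPKM. PRIM1, the catalytic primase subunit, was at 15.4 and 17.8 FPKM against 17.6 and 16.2 FPKM, and overlapped. The total of the 4 genes was 38.4 and 39.1 FPKM with sh-MFAP2 and 42.8 and 39.7 FPKM with the control shRNA, and it overlapped after scaling by median of ratios, with a log2 ratio of -0.09 that was -0.04 without control replicate 1.

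The replicative polymerases showed no common direction. POLD1, the catalytic subunit of polymerase delta, was at 30.8 and 23.2 FPKM with sh-MFAP2 and at 22.7 and 24.4 FPKM with the control shRNA. POLE, that of polymerase epsilon, was at 5.13 and 5.19 FPKM against 5.30 and 5.53 FPKM, a log2 fold change of -0.06 that turned positive with quantile normalization, median of ratios and removal of the GC and length trend. POLE2 was at 10.7 and 12.3 FPKM against 12.4 and 10.9 FPKM. The interval of the difference was -0.33 to 0.68 for POLD1, -0.34 to 0.22 for POLE and -0.39 to 0.36 for POLE2 (95%, log2), so moderate changes in either direction remain within the error. The total of the 3 genes was 46.6 and 40.7 FPKM against 40.4 and 40.9 FPKM, with a log2 ratio of 0.10 that was 0.00331 without sh-MFAP2 replicate 1. After scaling by median of ratios this total lay above both controls.

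The clamp loader held the member with the smallest p. RFC1, the large subunit that opens the PCNA ring (chromosome 4, 39287456 to 39366375, minus strand), was at 11.5 and 10.5 FPKM in replicates 1 and 2 with sh-MFAP2, and at 17.2 and 18.7 FPKM with the control shRNA. Both sh-MFAP2 libraries lay well below both controls, with little spread in either group. Its log2 fold change of -0.66 (standard error 0.114, 95% interval -0.98 to -0.34) corresponds to 0.633 times the control on the log2(FPKM + 1) scale. Limma gave an unadjusted p = 0.00528 and an adjusted p = 0.294, so the difference did not pass the correction. It ran from -0.72 to -0.60 whichever library was left out, and was -0.44 after the GC and length trend was removed.

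The small RFC subunits were split. RFC3 was at 13.2 and 15.5 FPKM with sh-MFAP2 and at 16.5 and 18.3 FPKM with the control shRNA, a log2 fold change of -0.27 (standard error 0.135, adjusted p = 0.480 from limma). RFC5 was at 14.0 and 17.1 FPKM against 19.2 FPKM in both controls, a log2 fold change of -0.29 (standard error 0.138, adjusted p = 0.461 from limma). Both were below the controls in each library, whereas RFC2, at 26.4 and 27.7 FPKM against 30.9 and 21.9 FPKM, and RFC4, at 14.7 and 15.9 FPKM against 16.7 and 14.9 FPKM, overlapped. RFC1 held 14.4% and 12.2% of the summed FPKM of the 5 genes in sh-MFAP2 and 17.1% and 20.2% in control. The total was 79.9 and 86.7 FPKM with sh-MFAP2 (83.3 ± 4.77, SD, n = 2) and 101 and 93.0 FPKM with the control shRNA (96.8 ± 5.37, SD, n = 2), a ratio of 0.860 that kept the groups apart also after scaling by median of ratios.

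PCNA, the clamp that RFC loads (chromosome 20, 5114953 to 5126626, minus strand), overlapped between the groups. It was at 518 and 460.3 FPKM with sh-MFAP2 and at 482 and 439.6 FPKM with the control shRNA. Control replicate 1 lay between the sh-MFAP2 libraries, with a log2 fold change of 0.09 (standard error 0.130, 95% interval -0.28 to 0.45). PCNA has the processed copies PCNAP1, PCNAP3 and PCNAP4 elsewhere in the genome, among which the authors' estimation could have split reads. RFC3, RFC5, RPA2, FEN1, RRM2 and TYMS have such copies too, and the exons of 17 members overlap those of another gene in GENCODE 29, so their values are uncertain. The sources do not say whether strand was used in counting. For POLA2, POLD1, PRIM1, FEN1 and RRM2 an overlapping gene lies on the same strand, where strand would not separate the reads.

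RPA, the heterotrimer that coats single-stranded DNA, was slightly higher in total, at 78.4 and 75.5 FPKM with sh-MFAP2 and 68.2 and 71.7 FPKM with the control shRNA, a ratio of 1.10. RPA2, its middle subunit and a target of checkpoint kinases, was at 47.5 and 44.4 FPKM against 42.1 and 41.0 FPKM, above both controls by a log2 fold change of 0.14 (standard error 0.106, adjusted p = 0.590 from limma). RPA1, the large subunit, was at 23.5 and 19.4 FPKM against 16.1 and 22.6 FPKM, and RPA3 at 7.41 and 11.7 FPKM against 10.0 and 8.01 FPKM. Both overlapped, and the gene FPKM of RPA2 exceeded that of RPA1 and RPA3 together in every library. That comparison rests on the 1 length per gene used in the gene table, 5492 bases for RPA1, 2019 for RPA2 and 3232 for RPA3. The leading RPA3 transcript has 847 bases, so the mRNAs of the subunits are not ranked here.

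Both enzymes of Okazaki fragment joining were higher in sh-MFAP2. LIG1, the DNA ligase that seals the fragments (chromosome 19, 48115445 to 48170603, minus strand), was at 21.3 and 16.5 FPKM in replicates 1 and 2 with sh-MFAP2, and at 11.4 and 10.7 FPKM with the control shRNA. The lower sh-MFAP2 library was well over the higher control, with a mean difference given by a log2 fold change of 0.72 (standard error 0.162, 95% interval 0.25 to 1.18), or 1.64 times the control on the log2(FPKM + 1) scale. Limma gave an unadjusted p = 0.0133 and an adjusted p = 0.343, so the difference did not pass the correction. It ran from 0.54 to 0.89 whichever library was left out, and was 0.59 with summed transcript FPKM in place of the gene values. FEN1, the nuclease that trims the flap before ligation, was at 66.4 and 48.6 FPKM against 45.2 and 45.7 FPKM, a log2 fold change of 0.31 (standard error 0.190, adjusted p = 0.534 from limma), of which sh-MFAP2 replicate 1 gave the larger share: without that library it was 0.09.

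**Figure D3:**
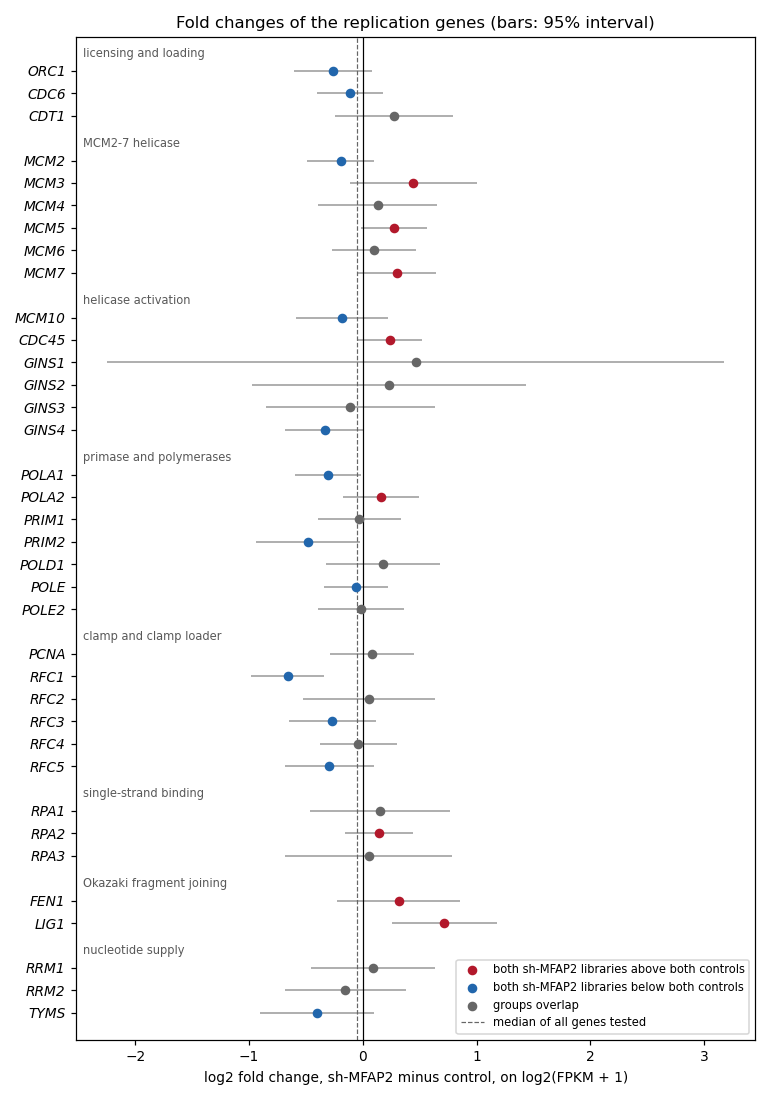
Log2 fold change (sh-MFAP2 minus control, on log2(FPKM + 1)) of each replication gene with its 95% interval from limma, grouped by role, in red where both libraries with sh-MFAP2 exceeded the controls, in blue where both were below and in grey where the groups overlapped. LIG1 is farthest to the right at 0.72 and RFC1 farthest to the left at -0.66, GINS1 has the widest interval, and the dashed line marks the median of all genes tested (-0.05).

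LIG1 also differed between the groups in which transcript carried the reads. ENST00000263274 (28 exons, 3384 bases) was at 37.4 and 28.7 FPKM with sh-MFAP2 and at 11.3 and 5.51 FPKM with the control shRNA, whereas ENST00000427526 (27 exons, 3027 bases) was at 3.16 and 2.82 FPKM against 9.93 and 15.2 FPKM. The first held 85.0% and 81.5% of the summed LIG1 transcript FPKM in sh-MFAP2 and 42.9% and 21.9% in control, and the second held 7.19% and 8.01% against 37.6% and 60.5%. The groups did not overlap in either transcript, and the leading transcript of control replicate 2 was the one that was minor in sh-MFAP2. ENST00000263274 had a log2 fold change of 1.91 (standard error 0.398, adjusted p = 0.447 from limma over 22312 transcripts) and ENST00000427526 one of -1.74 (standard error 0.270, adjusted p = 0.329 from limma). No transcript of any gene was called in this test, which was added after the data were seen, although 1704 had an unadjusted p under 0.05. Values of single transcripts are estimates that divide shared reads, and no error of theirs was used here. The gene values are lower than the summed transcript FPKM in all 4 libraries, because the gene table divides by 1 gene length, 6576 bases for LIG1.

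These transcripts of LIG1 differ in 4 of the exons of the longer one, and exon 3 is the one that is present or absent as a whole. Exon 3 of ENST00000263274 (GRCh38, chr19:48162262-48162351, minus strand) is 90 bases long, or 30 codons, is coding throughout and follows 17 coding bases, and it is absent from ENST00000427526. The motif by which DNA ligase I binds PCNA is known to lie at the very start of the protein. The exon is shown because it is the one coding exon that the second transcript lacks, with exon 3 in capitals between the coding bases before it and the first bases of the next exon, followed by the junction that skips it.
LIG1 with exon 3: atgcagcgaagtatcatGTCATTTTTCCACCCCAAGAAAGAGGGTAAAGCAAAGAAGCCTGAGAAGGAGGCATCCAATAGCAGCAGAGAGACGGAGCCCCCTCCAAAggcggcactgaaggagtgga
LIG1 without exon 3: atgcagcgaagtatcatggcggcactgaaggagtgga
Since exon 3 is a whole number of codons, the reading frame is the same after the skip. The first exon, which holds noncoding sequence, differs by more bases (363 against 104). Exon 7 (108 against 105 bases) and the last exon (288 against 283 bases) differ by fewer, and which of these differences the reads fell on cannot be seen in the deposited values.

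**Figure D4:**
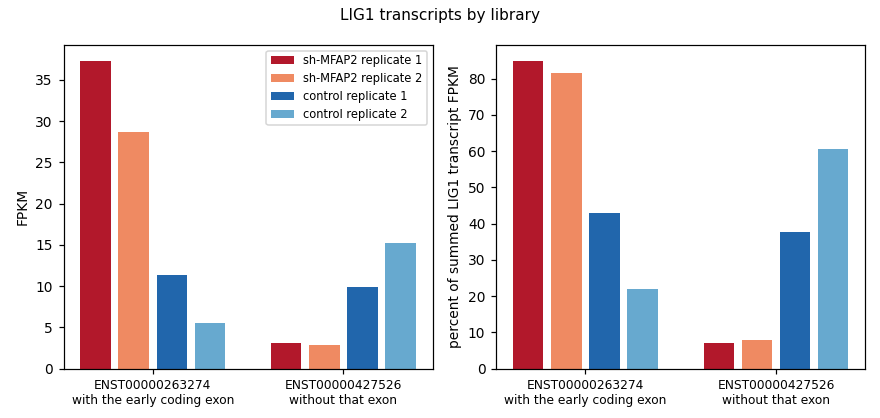
FPKM (left) and share of the summed LIG1 transcript FPKM in percent (right) of the 2 leading LIG1 transcripts, with 1 bar per library. The transcript with the early coding exon holds 81.5% to 85.0% in the sh-MFAP2 libraries and 21.9% to 42.9% in the controls, and the transcript without it shows the reverse order.

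For 10 members, 18 transcripts in all held at least 10% of their gene in a library and had a share that differed by more than 20 percentage points between libraries, where 32.8% of all genes tested had such a transcript. For 3 of these genes, LIG1, MCM4 and GINS3, the shares of such a transcript did not overlap between the groups, beside 14.6% of all genes tested. Neither count was above the background. MCM4 ENST00000262105 held 30.8% and 53.6% in sh-MFAP2 and 19.8% and 11.0% in control, and its FPKM was 20.6 and 27.9 against 10.2 and 6.29 (log2 fold change 1.47, adjusted p = 0.475 from limma). GINS3 ENST00000318129 held 96.5% and 96.7% against 71.7% and 96.4%, so the difference came from control replicate 1. In RPA3 the transcripts traded places by library and not by group, with ENST00000223129 at 16.7% and 63.8% in sh-MFAP2 and at 58.2% and 28.3% in control. The other genes with such shifts were MCM10, GINS4, POLA1, POLE2, RFC2 and RFC4, for all of which the shares overlapped between the groups.

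Of the genes of nucleotide supply, TYMS was lower and RRM1 and RRM2 overlapped. TYMS, the thymidylate synthase that makes dTMP (chromosome 18, 657604 to 673578, plus strand), was at 51.8 and 61.0 FPKM with sh-MFAP2 and at 83.7 and 66.6 FPKM with the control shRNA. The higher sh-MFAP2 library stayed under the lower control, with a log2 fold change of -0.40 (standard error 0.177, adjusted p = 0.441 from limma), though the controls differed from each other by more than the groups did at their nearest. Its exons overlap ENOSF1 and TYMSOS on the other strand. RRM1, the large subunit of ribonucleotide reductase, was at 65.0 and 47.3 FPKM against 52.2 and 52.0 FPKM. RRM2, its small subunit and the one whose level limits the enzyme in S phase, was at 43.8 and 58.8 FPKM against 54.3 and 59.0 FPKM, and both overlapped.

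Within the members, direction went with base composition. The median GC content of the leading transcript was 54.1% (48.1% to 60.7%) for the 8 genes above the controls, 46.6% (39.1% to 58.1%) for the 12 below and 46.5% (40.1% to 64.9%) for the 16 that overlapped. Across the 36 genes, GC content and log2 fold change had a Spearman correlation of 0.48, and across 9795 genes tested the correlation was 0.37. These are correlations over genes that share the same 4 libraries, and they are given as a description. LIG1 had a GC content of 60.7% and RFC1 one of 41.6%. MCM2, at 58.1% and lower in sh-MFAP2, and GINS1, at 41.4%, ran against the relation. The trend on GC content and length was then removed from each library, an alternative added after the data were seen. With it 0 members were called, beside 24 of 9795 genes tested, and the median of the members was 0.06. An unadjusted limma p under 0.05 was found for 5 of the 36 members, beside 981 of the 9795 genes. Members moved both toward and away from 0. The log2 fold change was then -0.12 for RFC3, -0.08 for MCM10 and -0.21 for GINS4, each nearer 0 than before, and 0.70 for LIG1. It moved away from 0 for others, among them MCM6 (0.10 to 0.27), MCM4 (0.13 to 0.27) and RPA1 (0.15 to 0.29).

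**Figure D5:**
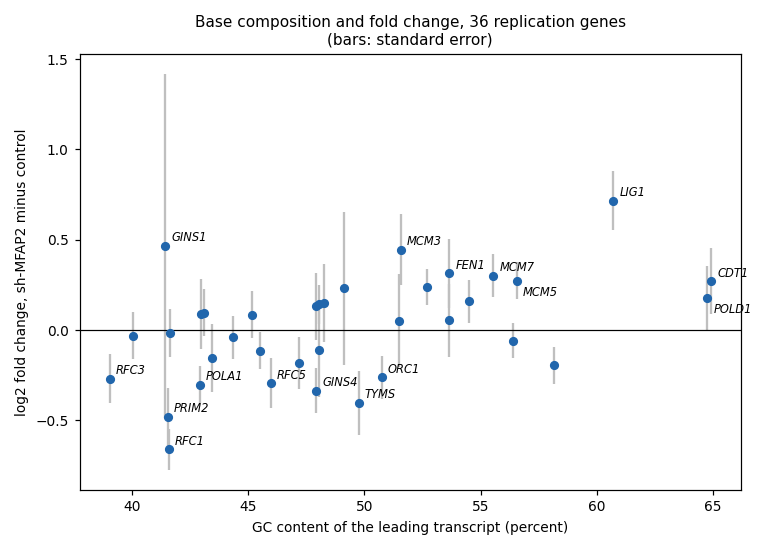
GC content of the leading transcript (percent, horizontal axis) against log2 fold change, sh-MFAP2 minus control (vertical axis), for the 36 replication genes, with bars for the standard error from limma. Genes below about 45% GC lie mostly at or under 0 and those above 52% mostly over it, with LIG1 at 60.7% and 0.72 and RFC1 at 41.6% and -0.66.

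In the wider set of replication genes 66.7% of those tested were lower in the mean, against 58.0% of all genes tested. Of 61 other genes of the pathway (origin recognition subunits, further polymerase subunits, fork protection and checkpoint factors, chromatin assembly factors, E2F and RB genes), 60 were tested, and MCM9, at 0.505 to 0.901 FPKM, was under the filter. None was called by limma. The sh-MFAP2 libraries lay below both controls for 23 (38.3%, against 31.4% of all genes) and above both for 9 (15.0%, against 17.5%), and the median log2 fold change was -0.11 (-0.05 over all genes). At an unadjusted limma p under 0.05, 12 of the 60 were lower and 1 was higher, beside 8.41% and 3.89% of all genes. The share was thus larger than that of all genes for the lower ones and smaller for the higher, and the difference was not tested. The higher one was E2F1, the transcription factor that drives many genes of the set, at 26.6 and 20.8 FPKM with sh-MFAP2 and at 11.0 and 11.4 FPKM with the control shRNA. E2F1 was above both controls in each library by a log2 fold change of 1.01 (standard error 0.159, adjusted p = 0.256 from limma) and was the only gene of the wider list with an unadjusted p under 0.01.

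The genes of mitosis, the other large group of cell cycle mRNAs, were mostly lower in the mean. All 38 were tested and none was called by limma, 31 were lower (81.6%, against 58.0% of all genes) and 7 higher in the mean, and the median log2 fold change was -0.17. The sh-MFAP2 libraries lay below both controls for 18 (47.4%, against 31.4% of all genes) and above both for 2 (5.26%, against 17.5%). Of the 38, 3 had an unadjusted limma p under 0.05, all lower, beside 8.41% lower and 3.89% higher among all genes. The replication genes had 12 below and 8 above, with a median of 0.05. The difference between the lists was not tested.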

How the data were processed

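The 4 AGS libraries, 2 per group, were grouped by their labels. The authors deposited gene and transcript tables taken here as FPKM from the values, since the header names no unit. The build is hg38 per the submitters' processing notes, and the aligner, the estimation program and the annotation are not given in the sources used here. Coordinates are from GENCODE 29 on GRCh38. The replication genes and the other lists were chosen with earlier results of these data known. The 9873 genes averaging 1 FPKM or more were fitted on log2(FPKM + 1) in limma 3.58.1 under R 4.3.3 (lmFit, then eBayes with its trend option), with Benjamini-Hochberg adjustment over all genes tested. The study's methods use the random variance model, for which limma's moderated test stands in, and its thresholds, p under 0.01 and adjusted p under 0.05. Fold changes on this scale understate the change of low genes. Only about 58.3% of low values lay on whole read steps (within 0.05 of a step), so reads were not recovered and no count test was run. Deviations of same-numbered libraries correlated at -0.0572, so no pairing by number was seen. With 2 libraries per group the crossed correlation is the mirror of this value, 0.0572, so a pairing is not excluded. All 36 members, MFAP2, genes of the wider list with an unadjusted p under 0.01 and transcripts by the share rule given with them are named, and E2F letters, CCAAT and TTTGAA were the letters searched. The cell type markers and the mitosis list are given by counts and sums. Alternatives were other filters, pseudocount, scalings, the replicate block, no variance trend, transcript sums and leaving out each library. Python 3.11.15, pandas 2.3.3, numpy 2.4.6 and matplotlib 3.10.9 were used for tables and figures.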

Additional observations from a re-analysis of the deposited data

How the results depend on the processing

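No replication gene was called under any filter, pseudocount or scaling tried, and no gene of the wider list without the filter on low values. With a library left out only fold changes are given, as 1 group then holds 1 library. Under the replicate block 0 of the 9873 genes tested were called, so the 0 members called there say nothing about the members. The block left the median at 0.0532, and whether the numbers pair the libraries is not known. At an unadjusted limma p under 0.05 alone 4 of the 36 members passed, beside 1214 of the 9873 genes tested, and at an unadjusted p under 0.01 alone 1 member did. Of 466 refits of single members 431 kept their direction and 35 turned, for 17 genes. Leaving out 1 library at a time, the median of the members ran from -0.0896 (without control replicate 2) to 0.0781, and was -0.0536 without sh-MFAP2 replicate 2, so its sign is not fixed. The number above both controls ran from 11 to 16 and the number below both from 13 to 18, as a lone library overlaps less. The matching shares of all genes tested are not given for these refits, so neither range is set against a background. Scaling by median of ratios moved the median to 0.120 and the log2 ratio of totals to 0.309 for CMG, 0.210 for RPA and -0.0173 for polymerase alpha-primase. That scaling divides each library by 1 factor, 0.963 and 0.996 for sh-MFAP2 and 1.03 for both controls. All log2 ratios of totals therefore moved up by the same amount, and not only these. MCM2-7 went from 0.208 to 0.280, GINS from 0.422 to 0.494 and RFC from -0.218 to -0.145. The median over all genes tested went from -0.0525 to 0.00556.

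Turned with median of ratios were POLE2 (0.0493), RFC4 (0.0274), POLE (0.00237) and PRIM1 (0.0373), and with quantile normalization POLE2 (0.0475), PCNA (-0.0615), POLE (0.0289) and PRIM1 (0.000545). With the GC and length trend removed, chosen after seeing the data, CDC6 (0.0620), POLE2 (0.0547), RPA3 (-0.0186), RRM2 (0.00385), POLE (0.0265) and PRIM1 (0.0365) turned. With libraries left out, ranges that crossed 0 were -0.836 to 1.77 for GINS1, -0.225 to 0.687 for GINS2, -0.422 to 0.204 for GINS3, -0.0643 to 0.326 for MCM4, -0.0170 to 0.210 for MCM6, -0.000101 to 0.170 for PCNA, -0.0178 to 0.373 for POLD1, -0.107 to 0.0732 for POLE2 and -0.130 to 0.0687 for PRIM1. They were -0.186 to 0.296 for RFC2, -0.118 to 0.0379 for RFC4, -0.0804 to 0.383 for RPA1, -0.243 to 0.346 for RPA3, -0.137 to 0.314 for RRM1 and -0.364 to 0.0550 for RRM2. The LIG1 transcripts kept their directions, from 1.45 to 2.38 and from -2.03 to -1.45. Depth is unknown, so no counting interval is given.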
